A study of Sus scrofa with 63 samples.

Results

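The genes described here encode enzymes of glycolysis and of lactate and pyruvate use in the jejunum of pig fetuses: the hexokinases HK1 and HK2, the phosphofructokinases PFKL and PFKP, ALDOA, PGK1, ENO1, the lactate dehydrogenases LDHA and LDHB, and PDK4. Members were taken by name: every probe of the array whose gene name was one of these 10 symbols, in any letter case. This found 41 probes of 8 genes among 45222 distinct gene names on the array, and no probe carried the name PFKL or PFKP, which were not analysed here. Of the 41 probes, 40 were tested: 13 for LDHB, 11 for PDK4, 7 for PGK1, 3 each for HK1 and LDHA, and 1 each for HK2, ALDOA and ENO1. The untested probe, for HK2, was well above background on 4 of 63 arrays. A gene is described by its brightest tested probe (the highest mean signal over the 63 arrays) and its other probes by their range.

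Glycolysis splits glucose into pyruvate and yields ATP without oxygen. Hexokinases trap glucose in the cell, aldolase (ALDOA) cleaves the doubly phosphorylated sugar, and phosphoglycerate kinase (PGK1) and enolase (ENO1) act in the steps that release energy. Lactate dehydrogenase is a tetramer of LDHA and LDHB subunits that interconverts pyruvate and lactate, and PDK4 phosphorylates and switches off pyruvate dehydrogenase, the complex that sends pyruvate into the mitochondrial cycle and whose inhibition spares glucose while fatty acids are burned. In the small intestine these enzymes work in an epithelium that also burns glutamine and, after birth, milk fat.

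RNA came from a middle segment of jejunum of 63 male fetuses at 2 gestational ages, day 90 and day 110, delivered by caesarean section. The 4 genotypes were purebred Large White (LW) and Meishan (MS), LWMS from an LW sire and an MS sow, and MSLW from an MS sire and an LW sow; MS piglets are known for better survival at birth. Day 90 had 9 LW, 8 MSLW, 9 LWMS and 6 MS fetuses, and day 110 had 9 LW, 6 MSLW, 9 LWMS and 7 MS fetuses. No fetus received a treatment. Sows were inseminated with mixed semen, so that purebred and crossed fetuses could share a litter, and since the labels do not name the sow, litter mates entered every test as independent fetuses and p-values do not cover the spread between litters.

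Each fetus had 1 one-colour array, and 51.2 to 87.6% of probes were well above background on an array. Levels are given as log2 signal minus the 75th percentile of the same array, so that 0 is the 75th percentile and 1 unit is a doubling. All 8 enterocyte markers on the array were well above background on at least 1 array and 6 of them on all 63. One array stood apart: MS day 110 fetus 632 deviated from its group mean by 1.03 (root mean square over 37740 probes, log2) against a median of 0.47 over the 63 arrays, its summed signal of 8 enterocyte markers was 99.3 against 325 or more in the other day 110 fetuses, and its summed enteric neuron and glia markers, at 37.0, were the highest of all fetuses. Calls of members that change without this fetus are given both ways. The next farthest from their group means were LW day 90 fetus 484, at 0.87, and LW day 110 fetus 469, at 0.71, which were left out together as an alternative. In whole tissue, fewer cells of a type and less RNA per cell cannot be told apart.

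Probe sequences are printed for the genes on which the comparisons turn, 5′ to 3′ as the scanner files list them, to show what each signal read. A probe each of LDHB, ALDOA and ENO1 is shown whole:
LDHB A_72_P522171: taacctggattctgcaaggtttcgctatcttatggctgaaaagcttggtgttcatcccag
ALDOA O7417: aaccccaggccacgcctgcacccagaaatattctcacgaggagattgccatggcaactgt
ENO1 O15015: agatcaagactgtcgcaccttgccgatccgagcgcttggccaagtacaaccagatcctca
For the others, the first 30 of 60 bases are given; in the HK1 pair the capital marks the only base at which these probes of the same site differ, C25T, counted from the 5′ end of A_72_P352783:
HK1 A_72_P352783: ggaattccccatcgcttttgtgagCcatgt
HK1 A_72_P541893: ggaattccccatcgcttttgtgagTcatgt
HK2 A_72_P203212: aaatacactgactctcagcctttgactgtc
LDHA CUST_478_PI427286967: ctgggatccaatgtacaaatccagtattgc
LDHA A_72_P086171: taaattggttcttgtaaaatagttctactt
LDHB A_72_P592974: gcccatgcttagtttaatgctttcaagcaa
PDK4 A_72_P576424: ctagtggatggaaactgactgttcaggccc
The LDHB probes included 3 of identical sequence and the PDK4 probes 2, so that 13 LDHB probes held 11 distinct sequences and 11 PDK4 probes held 10. The scanner files place none of these probes on a chromosome, and no genome build is named in them. In the RefSeq gene table of the pig assembly Sscrofa11.1, 2 genes carry the name LDHB, so the LDHB signal may come from either copy.

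An F test across the 8 groups, with all 40515 tested probes in 1 limma fit and Benjamini-Hochberg adjustment over them, passed for 4 of the 8 genes (HK2, LDHA, LDHB and PDK4) at an adjusted p under 0.01, where 28.8% of all tested probes passed. By probe, 28 of 40 passed: all 11 of PDK4, all 13 of LDHB, all 3 of LDHA and the HK2 probe. No probe of HK1, ALDOA, PGK1 or ENO1 did. The LDHB call had an adjusted p of 0.00756 and was lost in 4 of 14 alternative processings. Without fetus 632 the test passed for 5 genes, HK1 being the fifth.

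**Figure D1:**
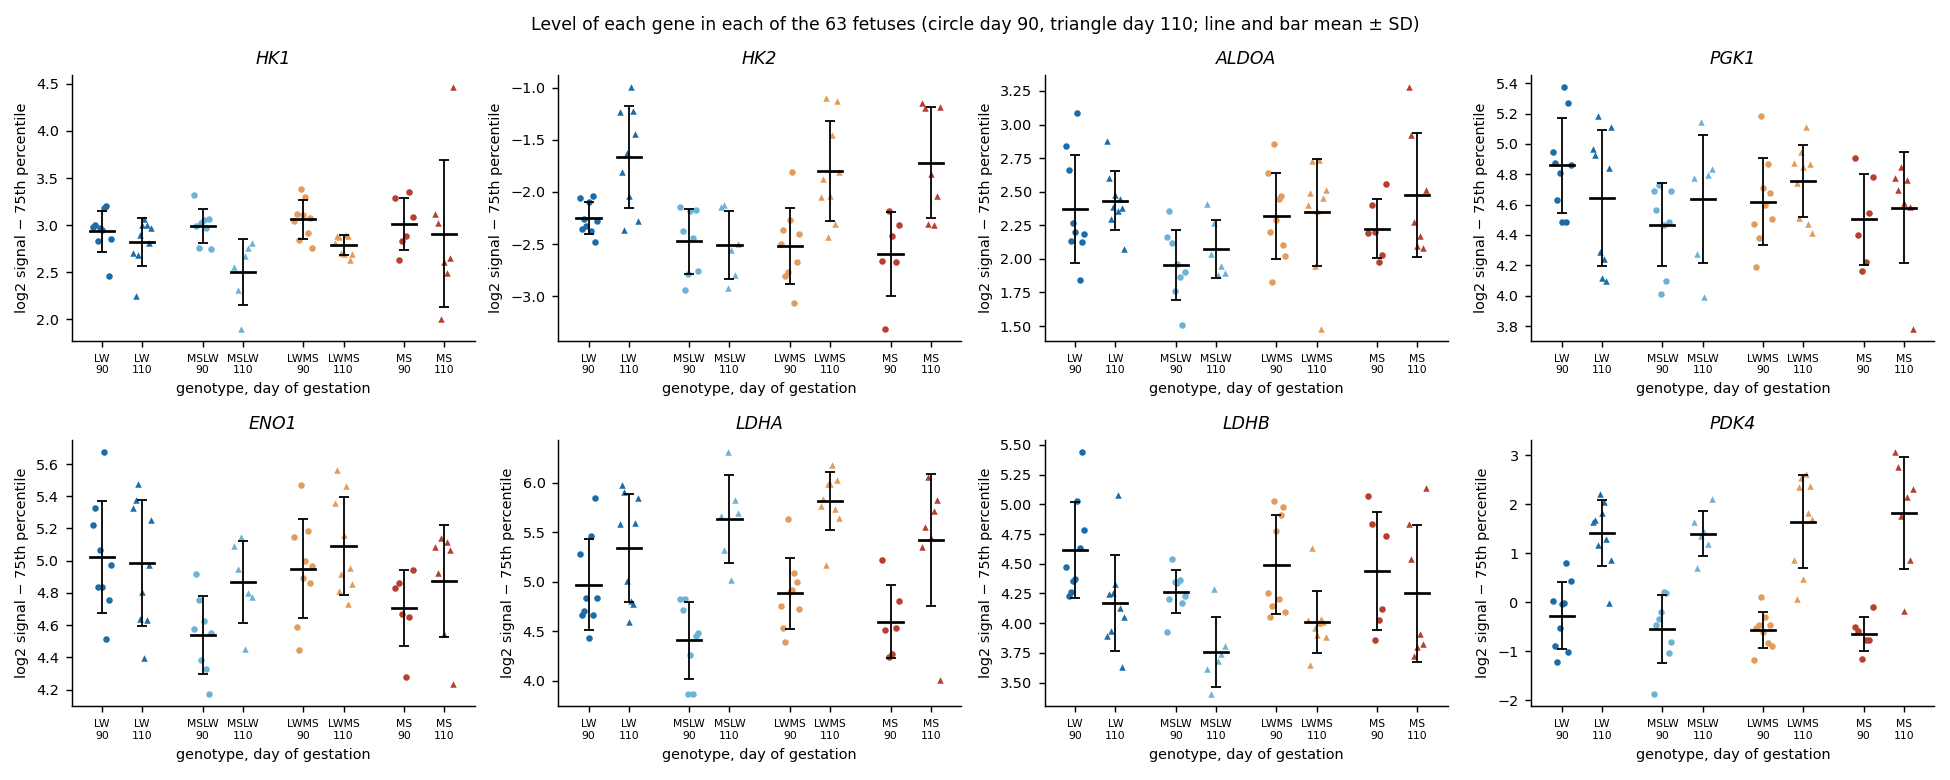
Log2 signal minus the 75th percentile of the array (vertical axis) of the brightest probe of each gene in each of the 63 fetuses, by genotype and day of gestation; circles are day 90, triangles day 110, and black lines and bars the mean ± SD. PDK4 and LDHA sit higher at day 110 in most fetuses, LDHB lower, and 1 MS day 110 fetus (632) lies far from its group for HK1, LDHA and PGK1.

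The question put to the 2 ages was which members changed as birth approached. A call between ages needed a log2 difference of 0.5 or more with an adjusted p no higher than 0.01. Over the mean of the 4 genotypes, 3 of 8 genes were called, all higher at day 110 (PDK4, LDHA and HK2), where 13.7% of all tested probes were called and 6.12% were called higher. The median difference of the 8 genes was 0.13 on the log2 scale, beside -0.02 over all tested probes. By genotype, 1 gene was called in LW (PDK4; 4.77% of all probes), 2 in MS (PDK4 and HK2; 3.17%), 3 in LWMS (PDK4, LDHA and HK2; 9.88%) and 2 in MSLW (PDK4 and LDHA; 5.41%). PDK4 was thus the member called in each genotype.

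**Figure D2:**
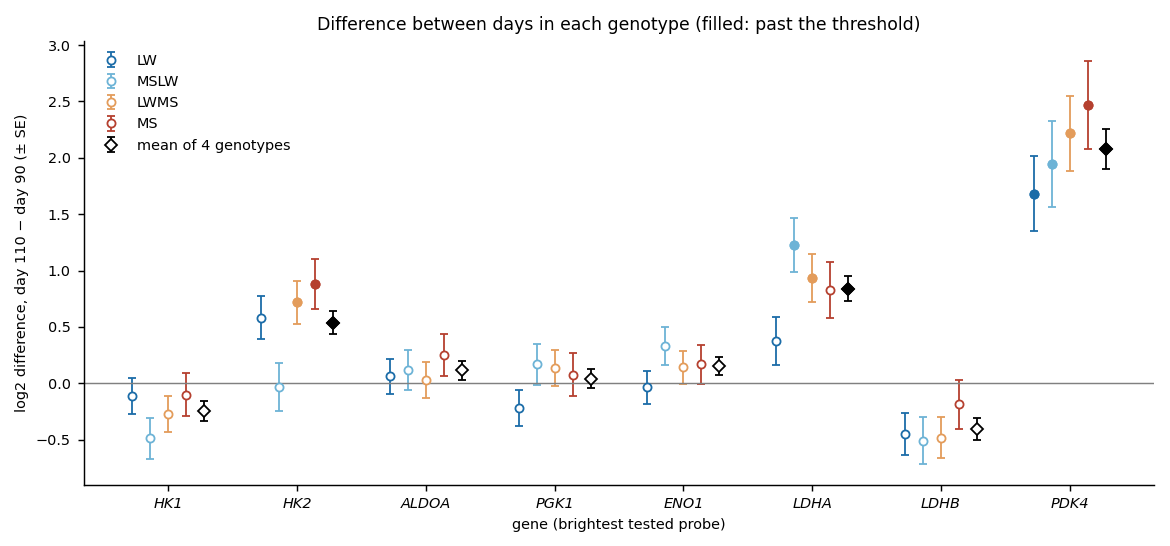
Log2 difference between day 110 and day 90 (vertical axis, ± SE from limma) of the brightest probe of each gene in LW, MSLW, LWMS and MS fetuses and as the mean of the 4 genotypes; filled symbols passed both thresholds. PDK4 is filled throughout, at 1.68 to 2.47, and ALDOA, PGK1, ENO1, HK1 and LDHB have no filled symbol.

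PDK4, the kinase that shuts off pyruvate dehydrogenase, showed the largest difference with age among the members. At day 90 its log2 level ran from -1.22 to 0.80 in LW fetuses (median -0.04), from -1.88 to 0.21 in MSLW (median -0.41), from -1.17 to 0.11 in LWMS (median -0.53) and from -1.17 to -0.10 in MS (median -0.68). At day 110 it ran from -0.01 to 2.21 in LW (median 1.63), from 0.70 to 2.09 in MSLW (median 1.39), from 0.06 to 2.62 in LWMS (median 1.83) and from -0.19 to 3.06 in MS (median 2.15). The 2 ages did not overlap in MSLW, and 8 of 9 LW, 8 of 9 LWMS and 6 of 7 MS fetuses of day 110 lay above every day 90 fetus of their genotype. The share of all tested probes with such a separation is not given here, for PDK4 or for the other members.

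The PDK4 difference was 1.68 ± 0.33 in LW (SE; adjusted p = 0.000281), 1.94 ± 0.38 in MSLW (adjusted p = 0.000269), 2.22 ± 0.33 in LWMS (adjusted p = 1.19e-06) and 2.47 ± 0.39 in MS (adjusted p = 1.47e-05) in limma, that is 3.21-fold to 5.53-fold. Averaged over genotypes it was 2.08 ± 0.18, or 4.22-fold (adjusted p = 1.93e-14). The mean was higher at day 110 on 8 of 8 slides, by 1.40 to 2.68. In the order of the 8 group means, all day 90 groups lay below all day 110 groups, and the step between LW day 90 and MSLW day 110 was the only one between neighbours that exceeded the larger SD of the pair. The SD between fetuses was 0.35 at day 90 and 1.14 at day 110 in MS, 0.37 and 0.95 in LWMS, 0.68 at both ages in LW, and 0.69 and 0.46 in MSLW, and the change in spread was not tested. Of the 11 PDK4 probes, 6 were well above background on all 63 arrays, and these were called higher over the 4 genotypes, by 1.996 to 2.15. The other 5 were well above background on 25 to 60 arrays, with day 90 values nearer to background. A probe of this kind can pass the filter through the day 110 groups in which it is high, so their differences of 1.62 to 2.33 lend no support of their own.

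LDHA, the subunit usual in tissues that make lactate, also rose. At day 90 its log2 level ran from 4.44 to 5.85 in LW fetuses (median 4.83), from 3.86 to 4.83 in MSLW (median 4.46), from 4.39 to 5.63 in LWMS (median 4.89) and from 4.23 to 5.22 in MS (median 4.52). At day 110 it ran from 4.60 to 5.98 in LW (median 5.59), from 5.02 to 6.31 in MSLW (median 5.68), from 5.16 to 6.18 in LWMS (median 5.84) and from 4.00 to 6.06 in MS (median 5.56). All 6 MSLW fetuses of day 110 lay above every MSLW fetus of day 90, as did 8 of 9 in LWMS and 6 of 7 in MS, but 2 of 9 in LW.

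The LDHA difference with age was called in MSLW (1.23 ± 0.24, 2.34-fold, limma adjusted p = 0.00028) and LWMS (0.93 ± 0.21, 1.91-fold, adjusted p = 0.000842). It did not pass in MS (0.82 ± 0.25, adjusted p = 0.0292) or in LW (0.37 ± 0.21, adjusted p = 0.285). The lowest MS day 110 value was that of fetus 632, at 4.00; without it the MS values ran from 5.35 to 6.06, and the difference was 1.06 ± 0.23 with an adjusted p of 0.00149, so that LDHA was called in MS. Over the 4 genotypes LDHA was 0.84 ± 0.11 higher at day 110 (1.79-fold, adjusted p = 2.11e-08), and higher on 8 of 8 slides. The change with age was 0.45 ± 0.33 larger in MS than in LW, which did not pass (adjusted p = 0.935). All 3 LDHA probes were called higher over the genotypes, by 0.70 to 0.89.

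LDHB, the subunit usual in tissues that use lactate, moved the other way. Its log2 level ran over all day 90 fetuses from 3.86 to 5.44 (median 4.35; n = 32) and over all day 110 fetuses from 3.40 to 5.14 (median 3.96; n = 31). At day 110, 8 of 9 LWMS, 5 of 6 MSLW, 5 of 9 LW and 3 of 7 MS fetuses lay below every day 90 fetus of their genotype. The brightest probe was 0.41 ± 0.10 lower at day 110 over the 4 genotypes (0.754-fold, limma adjusted p = 0.000791), short of the 0.5 asked of a call, and lower on 8 of 8 slides. In single genotypes its difference was -0.45 ± 0.18 in LW (adjusted p = 0.11), -0.51 ± 0.21 in MSLW (adjusted p = 0.107), -0.48 ± 0.18 in LWMS (adjusted p = 0.0547) and -0.19 ± 0.22 in MS (adjusted p = 0.685; -0.34 ± 0.22 and adjusted p = 0.395 without fetus 632).

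Other LDHB probes did reach the size. Over the 4 genotypes 4 of 13 were called lower, where 7.62% of all tested probes were: A_72_P611588 (-0.57 ± 0.09), A_72_P522171 (-0.56 ± 0.09), A_72_P583731 (-0.54 ± 0.09) and A_72_P529705 (-0.51 ± 0.09), which start at bases 323, 585, 530 and 752 of the transcript record. With median centring of the arrays 2 were called, and without fetus 632 5 were. In LWMS 5 of 13 were called lower, where 5.68% of all tested probes were. Of the probes with a listed start on that record, those beginning at base 780 or later gave -0.49 to -0.37, so that the 4 called probes were the 4 nearest the 5′ end. The SE of each was 0.09 to 0.10, and the difference between probes was not tested. All 13 estimates were below 0 in each of the alternative processings that kept single probes, and the mean of the 13 probes was 0.46 lower at day 110.

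HK2, the hexokinase that many tissues induce, had a signal below the 75th percentile of the array in every fetus. At day 90 its log2 level ran from -2.48 to -2.04 in LW fetuses (median -2.28), from -2.94 to -2.14 in MSLW (median -2.41), from -3.07 to -1.81 in LWMS (median -2.49) and from -3.31 to -2.19 in MS (median -2.54). At day 110 it ran from -2.36 to -0.99 in LW (median -1.63), from -2.92 to -2.12 in MSLW (median -2.53), from -2.43 to -1.10 in LWMS (median -1.88) and from -2.32 to -1.15 in MS (median -1.83). The ages overlapped in every genotype, with 6 of 9 LW, 5 of 7 MS, 3 of 9 LWMS and 1 of 6 MSLW fetuses of day 110 above all of day 90.

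HK2 was called higher at day 110 in LWMS (0.72 ± 0.19, 1.64-fold, limma adjusted p = 0.00391) and in MS (0.88 ± 0.22, 1.84-fold, adjusted p = 0.00706). Without fetus 632 the MS difference was 0.79 ± 0.23 with an adjusted p of 0.0199, no longer a call, and 4 of the other alternatives also lost it. The LW difference of 0.58 ± 0.19 did not pass (adjusted p = 0.0324), and the MSLW difference was -0.03 ± 0.21 (adjusted p = 0.947). The change with age was 0.52 ± 0.20 larger with an MS than with an LW sow, which did not pass over all probes (adjusted p = 0.279). Over the 4 genotypes HK2 was 0.54 ± 0.10 higher at day 110 (1.45-fold, adjusted p = 2e-05) and higher on 8 of 8 slides, a value close to the size asked of a call: it fell to 0.41 to 0.48 in 3 alternatives. The gene rests on 1 tested probe, whose sequence record is not a RefSeq transcript. The untested HK2 probe lies on a RefSeq transcript record and had a mean log2 level of -6.78.

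HK1, the constitutive hexokinase, was not called between ages in any genotype or over all of them. Its log2 level ran from 2.46 to 3.38 at day 90 (n = 32) and from 1.90 to 4.47 at day 110 (n = 31), and the value of 4.47 was that of fetus 632. The ages overlapped in each genotype. The difference over the 4 genotypes was -0.25 ± 0.09 (limma adjusted p = 0.0187), and -0.31 ± 0.07 (adjusted p = 0.000115) without fetus 632, both short of the 0.5 asked. The 3 HK1 probes, of which the pair printed above reads the same site, gave -0.26 to -0.25.

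No enzyme of the middle and late steps was called between ages. ALDOA ran from 1.51 to 3.08 at day 90 and from 1.48 to 3.28 at day 110, PGK1 from 4.01 to 5.38 and from 3.78 to 5.18, and ENO1 from 4.17 to 5.67 and from 4.23 to 5.56. For each of these the ranges of the 2 ages overlapped over most of their length. Over the 4 genotypes the differences were 0.11 ± 0.09 for ALDOA (limma adjusted p = 0.3), 0.04 ± 0.09 for PGK1 (adjusted p = 0.749) and 0.15 ± 0.08 for ENO1 (adjusted p = 0.14). The 7 PGK1 probes gave -0.08 to 0.08. Among these genes no 2 neighbouring groups in the order of means differed by more than the larger of their SDs, which also held for HK1, HK2, LDHA and LDHB.

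Purebred MS and LW fetuses were compared at each age, since these breeds differ in survival at birth. No member was called at day 90, where 3.59% of all probes were, nor at day 110, where 5.01% were. At an unadjusted p under 0.05 limma had 1 gene at day 90 (PGK1) and 0 at day 110, and an ordinary linear model also called 0 of 8 at either age. At day 90, 7 of the 8 estimates were negative, and their median was -0.33 beside 0.03 over all probes. These estimates come from the same arrays, and LDHA, PGK1 and ENO1 varied together between fetuses, so their signs are not independent. The day 90 differences, MS minus LW, were -0.37 for LDHA (95% interval -0.85 to 0.10), -0.36 for PGK1 (-0.71 to -0.000959), -0.34 for HK2 (-0.76 to 0.07), -0.32 for ENO1 (-0.65 to 0.02) and -0.38 for PDK4 (-1.12 to 0.37). At day 110 the estimates ran from -0.11 for ENO1 to 0.41 for PDK4, whose 95% interval of -0.31 to 1.12 includes more than a doubling as well as 0. Without fetus 632 the lowest estimate was -0.17, for HK1, ENO1 was at -0.00489, and LDHA moved from 0.08 to 0.31 (limma adjusted p = 0.349). The probes of a gene differed. With all fetuses kept, the 3 LDHA probes ran from -0.66 to 0.27 at day 90 and from -0.11 to 0.50 at day 110. The 11 PDK4 probes, dim ones included, ran from -0.51 to 1.19 at day 110. None of these probes was called. The difference in the change with age between MS and LW passed for no member, where 0.0173% of all probes passed, 0 of 8 genes had an unadjusted p under 0.05 in limma, and the ordinary linear model called 0.

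The crosses allow the breeds of sow and sire to be compared. By breed of the sow no member was called at an adjusted p under 0.05, whether averaged over ages (15.9% of all probes), at day 90 (5.7%), at day 110 (9.97%) or in its change with age (0.388%). Unadjusted, limma had 0 genes averaged over ages, 0 at day 90, and 1 (HK2) at day 110 and in the change with age, and the ordinary linear model called 0 in each. HK2 at day 110 was 0.33 ± 0.14 higher with an MS sow (adjusted p = 0.146).

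By breed of the sire, ENO1 was 0.27 ± 0.08 lower with an MS than with an LW sire averaged over ages (0.832-fold, limma adjusted p = 0.0323), the 1 member called where 6.97% of all probes were. Its day 90 level ran from 4.17 to 4.91 in MSLW and from 4.28 to 4.94 in MS, against 4.45 to 5.47 in LWMS and 4.52 to 5.67 in LW. The ranges overlapped, with the highest values in the LW-sired groups. Without fetus 632 the difference was -0.24 with an adjusted p of 0.0507, no longer under the threshold, and 2 other alternatives also lost the call. At day 90 the brightest LDHA probe was 0.42 ± 0.16 lower with an MS sire (limma adjusted p = 0.206). A second LDHA probe, A_72_P086171, was 0.66 lower (limma adjusted p = 0.0197). It was the 1 of 40 tested member probes called at day 90, a count near the 2.11% of all probes called. That probe ran from 3.55 to 4.72 in MSLW and from 3.83 to 4.87 in MS, against 4.28 to 5.47 in LWMS and 4.35 to 5.72 in LW, and it was lower with an MS sire on 8 of 8 slides, by 0.25 to 1.35, with 1 to 3 fetuses a side. The brightest LDHA probe was lower with an MS sire on 6 of 8 slides, and 0.01 higher on each of the other 2. The slides hold the same arrays as the test, so these counts lend no support of their own. Averaged over ages A_72_P086171 was 0.39 lower with an MS sire (limma adjusted p = 0.0359, or 0.0557 without fetus 632). That call was also lost in 2 other alternatives. Of the 40 member probes 2 were called averaged over ages, this one and that of ENO1, where 6.97% of all probes were. The brightest LDHA probe was 0.24 lower averaged over ages and was not called (limma adjusted p = 0.244). The third LDHA probe, O14329, whose mean level over the arrays was -2.56, gave 0.05 at day 90. The LDHA probes thus did not all show a lower level with an MS sire, while all 3 were higher at day 110. No member was called by breed of the sire at day 110 (2.15% of all probes; 1 gene, HK2, unadjusted) or in the change with age (0% of all probes; 0 genes unadjusted), and the ordinary linear model called 0 in both. At day 90 limma called 0 of the 8 brightest probes, 4 (ALDOA, PGK1, ENO1 and LDHA) had an unadjusted p under 0.05, and the ordinary linear model called 0.

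Since LDHA and LDHB subunits mix in 1 enzyme, the log2 signal of LDHA minus that of LDHB was taken on each array; the level of this difference depends on the probes, and only its change can be read. The MSLW values ran from -0.50 to 0.90 at day 90 (median 0.26) and from 1.33 to 2.09 at day 110 (median 1.97), with no overlap. The LWMS values ran from 0.02 to 0.71 (median 0.48) and from 0.53 to 2.20 (median 2.02). The LW values ran from 0.03 to 0.81 (median 0.43) and from -0.27 to 1.97 (median 1.70), and the MS values from -0.33 to 0.42 (median 0.20) and from -1.14 to 2.34 (median 1.64). In each genotype most day 110 fetuses lay above those of day 90, and the lowest day 110 values of LW and MS lay below all of theirs at day 90.

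The LDHA minus LDHB difference rose by 1.74 in MSLW (exact permutation test over fetuses, two-sided, p = 0.000333, adjusted p = 0.00133 over 12 tests), by 1.42 in LWMS (exact p = 0.000165, adjusted p = 0.00123) and by 0.82 in LW (exact p = 0.0148, adjusted p = 0.0294). In MS the estimate was 1.01 and did not pass (exact p = 0.0647, adjusted p = 0.0862). The lowest MS value was that of fetus 632, and without it the MS estimate was 1.40 with an adjusted exact p of 0.00519. The LW call was lost (exact test, adjusted p = 0.0578) without fetuses 484 and 469. MS and LW differed by -0.19 at day 90 and -0.00 at day 110 (exact adjusted p = 0.221 and 0.994). The day 110 value was 0.38 without fetus 632 (exact adjusted p = 0.398).

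The same difference for the hexokinases, HK2 minus HK1, ran from -5.56 to -4.94 in LW fetuses at day 90 and from -5.25 to -3.95 at day 110, from -5.81 to -5.24 and from -5.55 to -4.43 in MSLW, from -6.15 to -5.11 and from -5.19 to -3.76 in LWMS, and from -6.02 to -5.02 and from -5.66 to -4.22 in MS. The ages overlapped in every genotype, with the higher values at day 110. The mean was higher at day 110 in each genotype: by 0.70 in LW (exact adjusted p = 0.00814), 0.46 in MSLW (exact adjusted p = 0.0294), 0.99 in LWMS (exact adjusted p = 0.00123) and 0.98 in MS (exact adjusted p = 0.0168). At day 90 it was 0.42 lower in MS than in LW (exact adjusted p = 0.0294), a call that 4 of 7 alternatives lost. Median centring and leaving out fetus 632, among those that kept it, cannot change this difference. In all, 8 of the 12 tests passed at 0.05. These tests show an unequal change of 2 probes, not which one changed. In MSLW the age difference was -0.03 for HK2 and -0.49 for HK1, neither called.

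**Figure D3:**
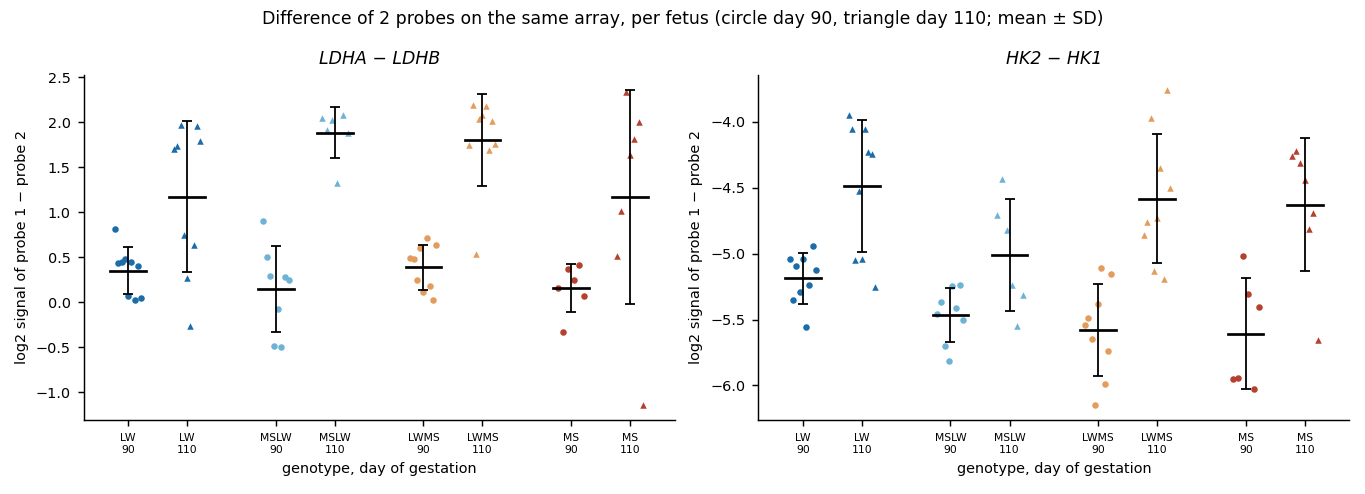
Log2 signal of the LDHA probe minus the LDHB probe (left) and of the HK2 probe minus the HK1 probe (right) on the same array (vertical axes), per fetus, by genotype and day; circles are day 90, triangles day 110, and black lines and bars the mean ± SD. The LDHA minus LDHB difference is higher at day 110, without overlap in MSLW, and the lowest MS day 110 point, -1.14, is fetus 632.

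Members were also compared between fetuses of the same group, as deviations from the group means over 63 fetuses; arrays share a scaling, which all pairs have in common. Of 28 pairs, 8 had an adjusted permutation p under 0.05 by both Pearson's r and Spearman's rho, 7 of them positive. The share among pairs of other genes is not given here, so the count cannot be read as a trait of these genes. Genes outside the members also reached r = 0.89 with LDHA, as given below. PGK1 and LDHA were the closest (r = 0.92, rho = 0.92, permutation p = 1e-05 each, the smallest that 100000 resamples can give, adjusted p = 9.33e-05 and 7e-05), and r was 0.91 without the 2 fetuses farthest from the PGK1 median. PGK1 and ENO1 (r = 0.74, rho = 0.70), ENO1 and LDHA (r = 0.68, rho = 0.67) and ALDOA and ENO1 (r = 0.57, rho = 0.55) followed, each with a permutation p of at most 2e-05. LDHB and PDK4 went together (r = 0.48, rho = 0.56, permutation p = 0.0002 and 1e-05), as did HK1 and HK2 (r = 0.42, rho = 0.37, adjusted permutation p = 0.007 and 0.0289) and HK2 and ALDOA (r = 0.36, rho = 0.35, adjusted permutation p = 0.0212 and 0.0314).

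The negative pair was HK2 and LDHA (r = -0.37, rho = -0.34, adjusted permutation p = 0.0212 and 0.0369; r = -0.35 without the 2 farthest fetuses). Without fetus 632 it passed by r alone (r = -0.32, rho = -0.31, adjusted permutation p = 0.0454 and 0.0598), and ALDOA and PGK1 passed by both measures (r = 0.34, rho = 0.31, adjusted permutation p = 0.0124 and 0.0444). HK1 and LDHA had r = -0.47 but rho = -0.19, and r was -0.23 without the 2 farthest fetuses, 1 of which was fetus 632, so that relation rests on these fetuses. LDHA and LDHB, whose age differences were opposite, showed no relation past the threshold between fetuses of a group (r = 0.01, rho = 0.07, permutation p = 0.971 and 0.624). LDHA and PDK4, which rose together with age, gave r = -0.16 and rho = -0.14 (permutation p = 0.268 and 0.312).

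Over the same deviations, the 3 named genes most like LDHA among 9567 compared were CYB5A (r = 0.89, a cytochrome b5), CIB1 (r = 0.89, a calcium-binding protein) and DNPEP (r = 0.89, an aminopeptidase), and those most like PDK4 were KLF9 (r = 0.78, a glucocorticoid-induced transcription factor), NFKBIA (r = 0.64, the inhibitor of NF-kappa B) and PIK3IP1 (r = 0.63, an inhibitor of phosphoinositide 3-kinase). Without fetus 632 these values were 0.86 to 0.88 for LDHA and 0.65 to 0.78 for PDK4.

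Other genes of the pathway were read from 6 lists. Beside their counts, 13.7% of all tested probes were called between ages over the 4 genotypes, 6.12% higher and 7.62% lower. Of 14 other glycolysis enzymes with a tested probe none was called between ages over the 4 genotypes (1 lower without fetus 632), and their median difference was 0.05, beside -0.02 over all probes. Estimates ran from -0.46 ± 0.11 for ENO2, the neuronal enolase, to 0.27 ± 0.06 for ADPGK, with GAPDH at 0.17 ± 0.09 and GPI at 0.19 ± 0.07. Of 5 genes that set fructose 2,6-bisphosphate or reverse its target step, 2 were called higher: PFKFB3, which makes this activator of phosphofructokinase, by 1.21 ± 0.11 (limma adjusted p = 1.17e-13), and FBP2, a fructose bisphosphatase, by 0.91 ± 0.09 (adjusted p = 2.74e-12). PFKFB1, the form best known from liver, was called lower, by 1.44 ± 0.21. PFKFB3 and FBP2 were called in each of the 4 genotypes.

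Of 11 genes of pyruvate dehydrogenase and its control, 2 were called, both higher: PDK3, another pyruvate dehydrogenase kinase, by 1.12 ± 0.12 (limma adjusted p = 6.15e-11) and PDHA1, the catalytic subunit that the kinases phosphorylate, by 0.73 ± 0.10 (adjusted p = 3.29e-08). PDK1 (0.18 ± 0.10) and PDK2 (-0.18 ± 0.13) were not called. Of 6 genes of lactate and pyruvate transport only BRP44, a subunit of the mitochondrial pyruvate carrier, was called, lower by 0.58 ± 0.15 (adjusted p = 0.00118), while the lactate transporters SLC16A1 (0.16 ± 0.07), SLC16A3 (-0.07 ± 0.17) and SLC16A7 (0.05 ± 0.11) were not. Of 7 hypoxia response genes outside glycolysis 4 were called, all higher: CA9, a carbonic anhydrase (1.89 ± 0.39), DDIT4 (0.83 ± 0.14), VEGFA (0.62 ± 0.09) and ADM (0.60 ± 0.09). NDRG1 went the other way, at -0.46 ± 0.08 (limma adjusted p = 1.59e-06), short of the size asked, and was called lower in MSLW (-0.60 ± 0.16). By genotype 4 of the 7 were called higher in LWMS, 2 in LW (3 without fetus 632), 2 in MSLW and 0 in MS by limma. Their median difference in MS was 0.22. Of all tested probes 9.88% were called in LWMS, 4.77% in LW, 5.41% in MSLW and 3.17% in MS, in either direction. In MS 2 of the 7 had an unadjusted p under 0.05, and an ordinary linear model also called 0. The difference between MS and LW in the change with age was called for 0 of the 7 by limma and by the ordinary linear model, with an unadjusted p under 0.05 for 1. Of 15 regulators 3 were called higher, EGLN3, an oxygen-sensing hydroxylase (1.36 ± 0.10), PPARGC1A, a co-activator of mitochondrial genes (1.05 ± 0.09), and EPAS1 (0.53 ± 0.11), and 1 lower, TXNIP, an inhibitor of glucose uptake (-0.82 ± 0.09). HIF1A was not called (-0.16 ± 0.06). Apart from the glycolysis enzymes, the counts of calls over the 4 genotypes in these lists were the same without fetus 632.

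**Figure D4:**
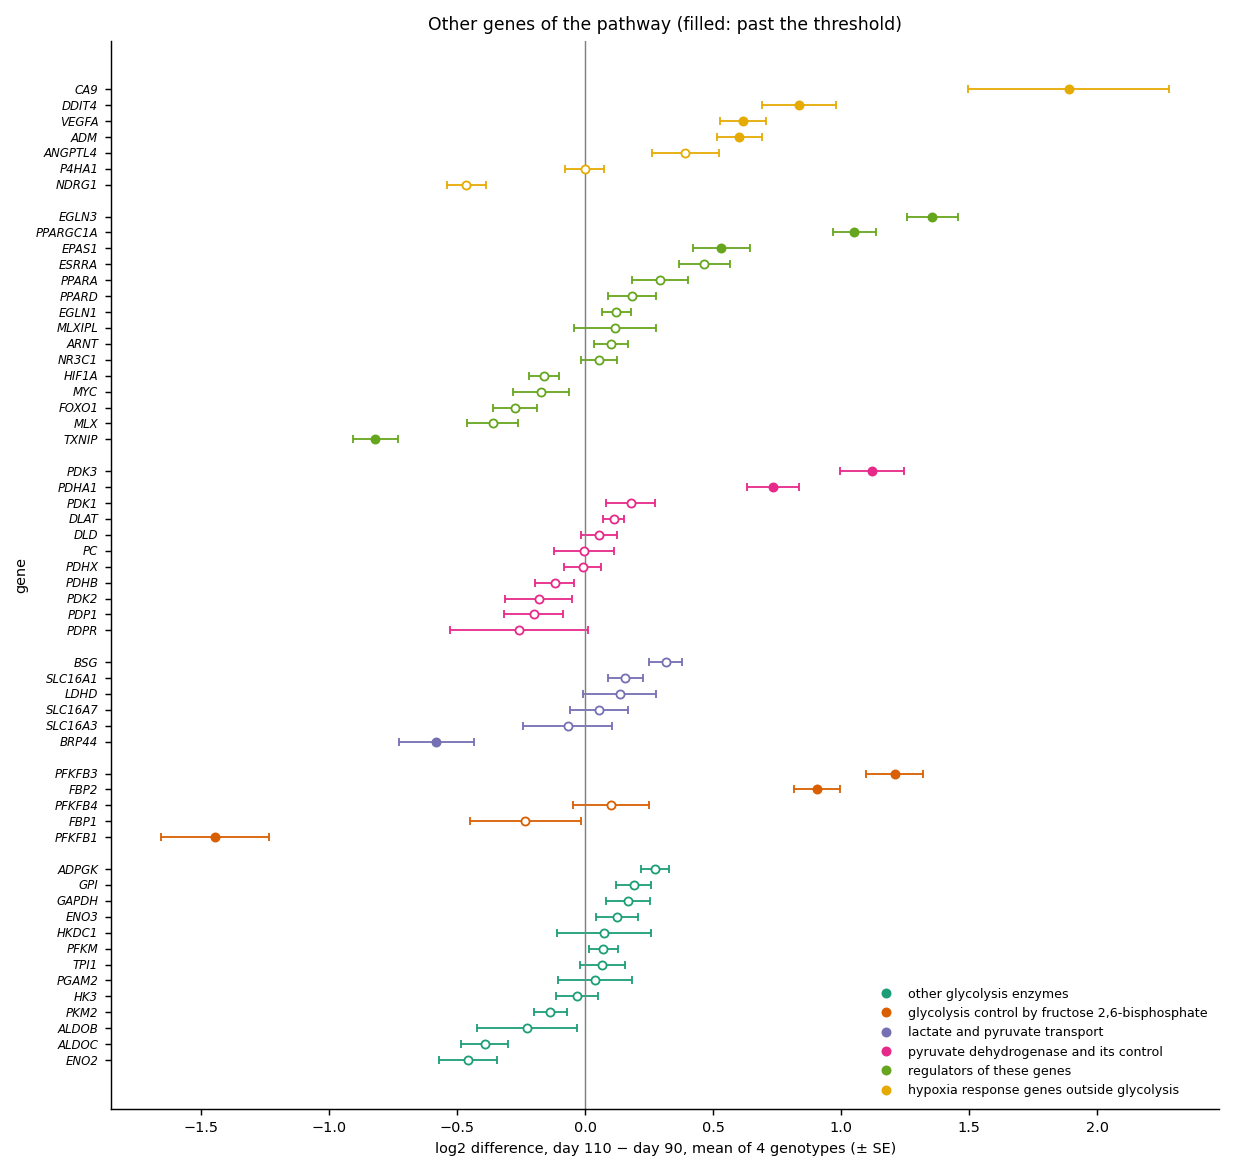
Log2 difference between day 110 and day 90 as the mean of the 4 genotypes (horizontal axis, ± SE) for the brightest tested probe of genes of the 6 pathway lists (vertical axis, coloured by list); filled symbols passed both thresholds. No other glycolysis enzyme is filled, while CA9, EGLN3, PFKFB3 and PDK3 lie beyond 1.1 and PFKFB1 at -1.44.

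Between purebred MS and LW fetuses, where no member was called, genes of these lists were. At day 110 SLC16A1 was 0.55 ± 0.14 higher in MS than in LW (limma adjusted p = 0.00421) and SLC16A7 0.92 ± 0.22 lower (adjusted p = 0.0031). FOXO1, a transcription factor known to induce PDK4, was lower in MS by 0.88 ± 0.18 at day 90 and 0.75 ± 0.17 at day 110. From the pyruvate dehydrogenase list, PDPR was 2.39 ± 0.56 higher in MS at day 90 (limma adjusted p = 0.00269). PDHX, of the same list, was 0.54 ± 0.14 lower in MS at day 110 (adjusted p = 0.00834). From the hypoxia list, P4HA1 was 0.64 ± 0.16 lower in MS at day 90 (adjusted p = 0.00444).

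Some cell type markers were called between ages as well, where 13.7% of all tested probes were. The linear signals of 8 enterocyte markers, each divided by the array's 75th percentile, were summed. The median sum was 823 (460 to 1284) at day 90 and 1420 (99.3 to 2429) at day 110. FABP1, ALPI, SI and LCT were called higher and ANPEP lower. The SI probe was well above background on only 24 arrays. Such a probe can pass the filter through a group in which it is high. The SI difference of 1.67 therefore lends no support of its own. The 6 enteric neuron and glia markers summed to a median of 23.2 (18.3 to 32.0) and 16.8 (6.45 to 37.0), with 3 called lower, and the 6 smooth muscle markers to 510 (400 to 703) and 423 (301 to 673), with ACTA2 called lower. Of 4 tested erythroid markers HBB and AHSP were called lower. Of 6 macrophage and leukocyte markers only CD163 was called, higher by 0.94, while the median difference of the 6 was -0.14. AIF1 (-0.33), CD68 (-0.32) and CSF1R (-0.28) were lower, CD14 (0.37) was higher and PTPRC was at 0.00226. The 6 summed to a median of 9.53 at day 90 and 8.84 at day 110. Of 6 cell cycle markers CCNB1 was called lower, and none of 5 endothelium, 3 skeletal muscle or 2 pancreas markers was called. Without fetus 632 the enterocyte markers had 4 calls higher and 0 lower, and the cell cycle markers 0. Their part in the age differences of PDK4, LDHA, LDHB and HK2 was not tested.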

How the data were processed

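Jejunum RNA of 63 fetuses was hybridised to one-colour Agilent arrays on 8 slides. Per the file headers, the authors deposited scanner output of Agilent Feature Extraction (version 10.10.1.1 in the submitters' processing notes) with linear spot intensity, background and flags. They also deposited a matrix of log2 values made after their quality control and normalization, used here as an alternative; its column medians were nearly equal, and the method of normalization is not given in the sources used here. The authors' own model held the sow as a random effect, which could not be fitted here since the labels do not name the sow.

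From the scanner files, log2 processed signal minus the 75th percentile of each array was used. Control spots and spots with outlier flags were left out, spots of 1 probe were averaged, and 2775 tested probes lacked a value on some array, which the fit left out. A probe was tested if, in 1 or more groups, 75% or more of the arrays had it well above background (40515 of 60305). limma 3.58.1 in R 4.3.3 fitted the means of 8 groups, with Benjamini-Hochberg adjustment over all tested probes; age and MS against LW used an adjusted p of at most 0.01 and a log2 difference of at least 0.5, the interaction of breed and age and the F test 0.01, and parental breeds 0.05. Differences of 2 probes were compared by exact permutation (12 tests, since PFKP and PFKL had no probe), and relations between genes (28 pairs) by 100000 permutations within groups, in Python 3.11.15 with scipy 1.17.1. The fit was tested on simulated data. The number of arrays limits the precision. The highest correlation between 2 arrays was 0.991.

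Groups came from the sample labels. The members, lists and tests were chosen with earlier results of these data known. All members were named, by the brightest tested probe; other probes were named where they were called and the brightest was not; of the lists, called genes were named, at most 6 a list, and uncalled genes named beside them were chosen after their values were seen, as was fetus 632. Alternatives covered background correction, scaling, filters, slide, array weights, single fetuses and the choice of probe. A gene of the lists and a probe sequence are not reported here.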

Additional observations from a re-analysis of the deposited data

Results flagged for a closer look

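In 80 sets of values (8 genes and 2 probe differences in 8 groups), 9 had a fetus whose gap to the nearest other fetus took an unusually large share of the group's range; chance gives this in about 1 group in 20. The 9 came from 6 fetuses. Fetus 632 had the lowest MS day 110 values of LDHA (4.00, next 5.35), PGK1 (3.78, next 4.58) and HK2 minus HK1 (-5.66, next -4.82). Fetus 609 had the highest LWMS day 110 value of LDHB (4.63, next 4.03) and the lowest of LDHA minus LDHB (0.53, next 1.70). Fetus 578 had the lowest MSLW day 110 value of LDHA minus LDHB (1.33, next 1.89). Fetus 575 had the highest LW day 110 value of LDHB (5.08, next 4.33). HK1 was lowest in LW fetus 469 at day 110 (2.25, next 2.68) and in LW fetus 484 at day 90 (2.46, next 2.83).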

How the results depend on the processing

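The counts of members were recomputed under up to 14 alternatives, 246 values in all, and 17 moved by over 1.5 times; no called direction reversed. The PDK4 age calls in each genotype and the LDHA age calls in LWMS and MSLW held under all 14. With normexp background correction 2 genes changed with age in LW (HK2 joined) and 1 in MS. Over all 40515 tested probes these counts were 1857 and 1014, against 1934 and 1285 in the main fit. With array weights 7 passed the F test and 2 changed with age in LW. By breed of the sire 4 differed averaged over ages, 2 at day 90 and 1 at day 110. Calls over all probes rose as well: 22511 passed the F test, against 11657 in the main fit. In LW 3372 changed with age, against 1934. By breed of the sire 6295 differed averaged over ages, 2974 at day 90 and 2442 at day 110, against 2824, 854 and 872. With the authors' processed values 1 gene differed by breed of the sow (PGK1), 1 by breed of the sow at day 110 (HK2) and 1 by breed of the sire at day 90 (LDHA). With median centring 1 changed with age in MS, 1 differed by breed of the sow at day 110 (HK2) and 0 by breed of the sire. Over all probes these counts were 874, 5111 and 1959, against 1285, 4041 and 2824 in the main fit. Without a filter on dim probes 1 changed with age in MS and 0 differed by breed of the sire. Of all 60305 probes 1027 and 2298 were called there. Without fetus 632, an alternative chosen after seeing the data, 0 differed by breed of the sire, where 3027 of 40515 probes did. With slide as a fixed block 1 differed by breed of the sire at day 90 (ENO1), where 1036 of all probes did, against 854 in the main fit. The cause of these moves was not tested. Leaving out the LWMS day 90 fetus with the highest share of probes above background, and that share as a covariate, both also chosen after seeing the data, moved no count by over 1.5 times. The LDHB call in the F test was lost with median centring, without the filter, with slide as a block and without fetuses 484 and 469. The HK2 age call in MS was lost under 5 of 14 alternatives and the ENO1 call by breed of the sire under 3 of 14. The 8 brightest probes were well above background on all 63 arrays, while 5 of 11 PDK4 probes were on 25 to 60 arrays. No paired analysis was possible because replicate numbers were given in accession order and pair no fetuses.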
